A study of Mus musculus with 2 samples.

Results

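Ecm1, Plagl1, Swap70, Capg, Penk, Izumo1r, Fgl2 and Klrg1 are genes reported as high in regulatory T cells whose function in those cells is not settled. They were taken by symbol, as all probe sets annotated to exactly 1 of the 8 names, which gave 13 of the 45101 probe sets and 8 of the 18193 genes on the array. Signals came from 2 Affymetrix Mouse Genome 430 arrays, 1 for CD4+GFP+FoxP3+ cells and 1 for CD4+GFPnegFoxP3neg cells, both sorted from DEREG mice at a stated purity above 99%. In DEREG mice the Foxp3 promoter drives green fluorescent protein (GFP). The line is generally described as carrying GFP fused to the diphtheria toxin receptor, whereas the labels give the GFP alone. The cells were therefore defined by a reporter, and both groups carry the same transgene. The sources used here give neither the organ nor the age or number of the mice, and no treatment. With 1 array per group no test could be run, and every difference below is a difference between these 2 arrays.

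Regulatory T cells are CD4+ T cells that restrain other immune cells and depend on the transcription factor Foxp3. Beside the receptors and cytokines that define them, they carry transcripts for secreted factors, cytoskeletal proteins, surface receptors and transcription factors that other lymphocytes and myeloid cells also make. The 8 genes span these roles. Ecm1, Fgl2 and Penk encode secreted products, Izumo1r and Klrg1 surface receptors, Swap70 and Capg proteins that bind actin, and Plagl1 a transcription factor.

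Signals are MAS5 intensities on a linear scale. A signal floor of 58.7 was set from genes restricted to other tissues, and a gene entered the comparison if at least 1 of its signals was above that floor. A gene was represented by its brightest probe set, and each difference is the log2 signal of GFP-positive cells minus that of GFP-negative cells. Foxp3, which drives the sort, had a signal of 504 in GFP-positive cells, against 173 in GFP-negative cells, or 2.91-fold higher, in the direction of the labels. All 7 T cell markers were above the floor on both arrays, 2 of them higher and 5 lower in GFP-positive cells. Cd4 had signals of 256.5 in GFP-positive cells, against 415 in GFP-negative cells, and Cd3e, a chain of the T cell receptor complex, had 541 in GFP-positive cells, against 862 in GFP-negative cells, while Cd3d, another chain, differed by -0.02 log2. The 3' to 5' signal ratio of Actb, a measure of RNA integrity that rises with degradation or incomplete copying, was 5.30 in GFP-positive cells, against 3.57 in GFP-negative cells. The same ratio of Gapdh was 9.27 in GFP-positive cells, against 6.24 in GFP-negative cells. The part of RNA integrity in the differences was not tested.

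The 8 genes separated into 3 that passed 2-fold in favour of GFP-positive cells, 3 that were higher by less, and 2 that differed little between the arrays. Ecm1, Plagl1 and Swap70 passed 2-fold, Fgl2, Izumo1r and Capg lay between 1.30-fold and 1.82-fold, and Penk and Klrg1 lay at 1.03-fold higher and 1.03-fold lower. All 8 were above the floor on both arrays. Bulk arrays give an average over each sorted population, so a larger share of cells carrying a transcript and more transcript per cell cannot be told apart in any of these values. Among the 10672 genes that entered, 1.91% passed 2-fold in favour of GFP-positive cells and 1.82% in favour of GFP-negative cells. The counts among the 8 genes were 3 and 0. The median log2 difference was 0.71 over the 8 genes and -0.0075 over all genes that entered. The genes were listed because of earlier reports in regulatory T cells and with results of these arrays known, so their counts carry no test. A yardstick of technical scatter is the pooled standard deviation of the log2 differences of probe sets about the mean of their gene. It was 0.40 over 8402 probe sets of 3289 genes. It holds no variation between animals or sorts. The differences of Ecm1, Plagl1, Swap70, Fgl2 and Izumo1r were larger than this value, and those of Capg, Penk and Klrg1 were smaller. The share of all genes beyond this value was not computed, so passing it does not set these genes apart.

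**Figure D1:**
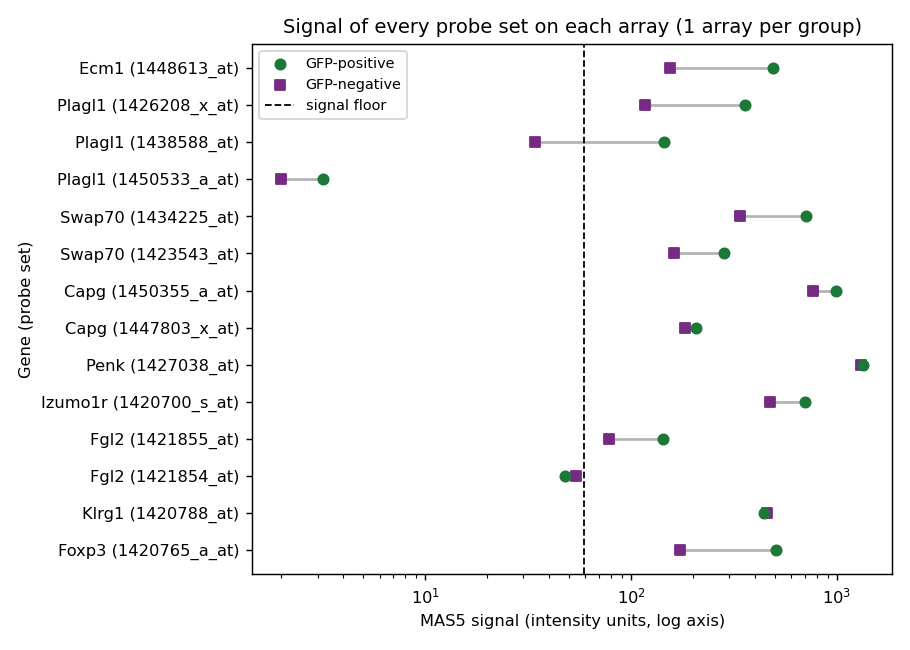
MAS5 signal on a log axis for each of the 13 probe sets of the 8 genes and for Foxp3, with circles for the GFP-positive array, squares for the GFP-negative array and a dashed line at the floor of 58.7. The gap is widest for the Plagl1 probe sets that reached the floor and for Ecm1, and the symbols for Penk and Klrg1 nearly coincide.

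Ecm1 encodes a secreted glycoprotein of the extracellular matrix that, in mice, is known for its role in the exit of type 2 helper T cells from lymph nodes. Its only probe set, 1448613_at, had a signal of 487 in GFP-positive cells, against 154.0 in GFP-negative cells. This is 3.16-fold, or 1.66 log2, higher in GFP-positive cells. The GFP-negative signal also cleared the floor, though 2 of the 63 tissue-restricted genes were as bright there.

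Plagl1 encodes a zinc finger transcription factor, also called Zac1, which is expressed from the paternal allele in many tissues and can slow the cell cycle. The brightest of its 3 probe sets, 1426208_x_at, had signals of 356 in GFP-positive cells, against 117.0 in GFP-negative cells, 3.04-fold or 1.60 log2 higher. The suffix of this probe set marks probes that may bind other transcripts as well. The second probe set, 1438588_at, has no such suffix and had signals of 144 in GFP-positive cells, against 34.0 in GFP-negative cells. Its GFP-negative signal was below the floor, so the difference is at least 2.46-fold. The third, 1450533_a_at, had signals of 3.2 in GFP-positive cells, against 2.0 in GFP-negative cells, far below the floor on both arrays, and gave no difference. Thus both Plagl1 probe sets that reached the floor were higher in GFP-positive cells, and neither signal of the third can be told from background.

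Swap70 encodes a phosphoinositide-binding protein that works with Rac GTPases and binds actin filaments, and it is best known from B cells and mast cells. Both of its probe sets were above the floor on both arrays. The brighter one, 1434225_at, had signals of 708 in GFP-positive cells, against 336.5 in GFP-negative cells, 2.10-fold higher. The other, 1423543_at, had signals of 281 in GFP-positive cells, against 161 in GFP-negative cells, 1.74-fold higher. The differences of the probe sets lay 0.27 log2 apart, and the second lay under 2-fold.

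The promoters of these 3 genes are shown because they are the members past 2-fold in the same direction. Each window runs from 250 bases before to 50 bases after the start of the gene, from RefSeq on GRCm38.p6, and 6 of the 8 genes matched the promoter table. The windows are chr3:95739520-95739819 on the minus strand for Ecm1, chr10:13090582-13090881 on the plus strand for Plagl1 and chr7:110221453-110221752 on the plus strand for Swap70. Each is written 5' to 3' on the strand of its gene, and capitals mark matches to the motifs named after them.
Ecm1: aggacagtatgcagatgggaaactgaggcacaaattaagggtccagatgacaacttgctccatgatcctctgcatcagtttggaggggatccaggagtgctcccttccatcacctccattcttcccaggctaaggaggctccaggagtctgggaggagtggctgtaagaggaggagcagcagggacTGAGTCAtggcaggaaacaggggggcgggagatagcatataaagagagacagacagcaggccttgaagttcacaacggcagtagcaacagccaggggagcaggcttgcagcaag
Plagl1: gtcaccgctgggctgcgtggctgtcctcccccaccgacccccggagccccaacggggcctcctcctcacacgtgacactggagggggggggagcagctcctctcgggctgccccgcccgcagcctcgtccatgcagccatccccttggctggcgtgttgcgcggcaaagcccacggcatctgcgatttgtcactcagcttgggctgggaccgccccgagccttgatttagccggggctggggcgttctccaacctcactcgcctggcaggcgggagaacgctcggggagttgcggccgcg
Swap70: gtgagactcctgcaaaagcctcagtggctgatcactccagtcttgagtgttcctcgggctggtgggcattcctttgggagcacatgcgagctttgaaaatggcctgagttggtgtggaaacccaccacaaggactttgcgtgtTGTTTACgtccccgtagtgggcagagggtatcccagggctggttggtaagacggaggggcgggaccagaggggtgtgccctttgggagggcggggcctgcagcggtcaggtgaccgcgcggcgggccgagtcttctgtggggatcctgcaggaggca

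The motifs were searched on both strands and chosen after the sequences had been seen: the forkhead motif TGTTTAC, the STAT motif TTCNNNGAA and the AP-1 motif TGANTCA. Swap70 held a forkhead match, TGTTTAC, starting at position -107 from the gene start, and 3.65% of all 32851 promoter windows of this length hold this motif. Ecm1 held an AP-1 match, TGAGTCA, at position -64, a motif found in 7.81% of windows. The Plagl1 window held none of the 3 motifs. Among the other matched members, Fgl2 had an AP-1 match at position -16 and a STAT match, TTCTGGGAA, at position -36, and 8.30% of windows hold the STAT motif. The Capg and Izumo1r windows had no match. No motif was therefore shared by the 3 genes past 2-fold. Their base composition differed too. The Plagl1 window held 26 CG dinucleotides and 70.7% G and C, Swap70 held 14 CG dinucleotides and Ecm1 2, against a median of 7 over all windows. A match in these letters is a description of the window and not evidence of binding.

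Fgl2 encodes fibrinogen-like protein 2, which is secreted by T cells as a suppressive factor and acts on inhibitory Fc gamma receptors. It was higher in GFP-positive cells by 1 of its 2 probe sets. The brighter probe set, 1421855_at, had signals of 143 in GFP-positive cells, against 78.4 in GFP-negative cells, 1.82-fold higher. The other, 1421854_at, had signals of 47.9 in GFP-positive cells, against 53.7 in GFP-negative cells, below the floor on both arrays. The GFP-negative signal of the brighter probe set was close to the floor, and the log2 difference of 0.86 became at least 0.28 with the floor doubled and 0.35 with both probe sets averaged.

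Izumo1r encodes a surface protein of the folate receptor family, known in T cells as folate receptor 4 and on the egg as Juno, the receptor for the sperm protein Izumo1. Its only probe set, 1420700_s_at, had signals of 696 in GFP-positive cells, against 471 in GFP-negative cells. The difference was 1.48-fold, or 0.56 log2, with both signals far above the floor. The suffix marks a probe set that can match several transcripts, and no other probe set of the gene allows a comparison.

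Capg encodes a member of the gelsolin family that caps the growing ends of actin filaments and is abundant in macrophages. Its brighter probe set, 1450355_a_at, had signals of 992 in GFP-positive cells, against 764 in GFP-negative cells, 1.30-fold higher. The other, 1447803_x_at, had signals of 206 in GFP-positive cells, against 182 in GFP-negative cells, 1.13-fold higher. Both pointed the same way, by less than the yardstick of 0.40 log2.

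Penk encodes proenkephalin, the precursor of the enkephalin opioid peptides. Its probe set 1427038_at had signals of 1342 in GFP-positive cells, against 1305 in GFP-negative cells, a difference of 0.04 log2. None of the 63 tissue-restricted genes reached these signals on either array, and the arrays gave nearly the same value. Klrg1 encodes an inhibitory lectin-like receptor for cadherins that is known from effector T and NK cells and from a subset of regulatory T cells. Its probe set 1420788_at had signals of 443 in GFP-positive cells, against 459 in GFP-negative cells, a difference of -0.05 log2 whose sign turned to 0.0037 after quantile normalization and 0.0031 after loess correction.

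**Figure D2:**
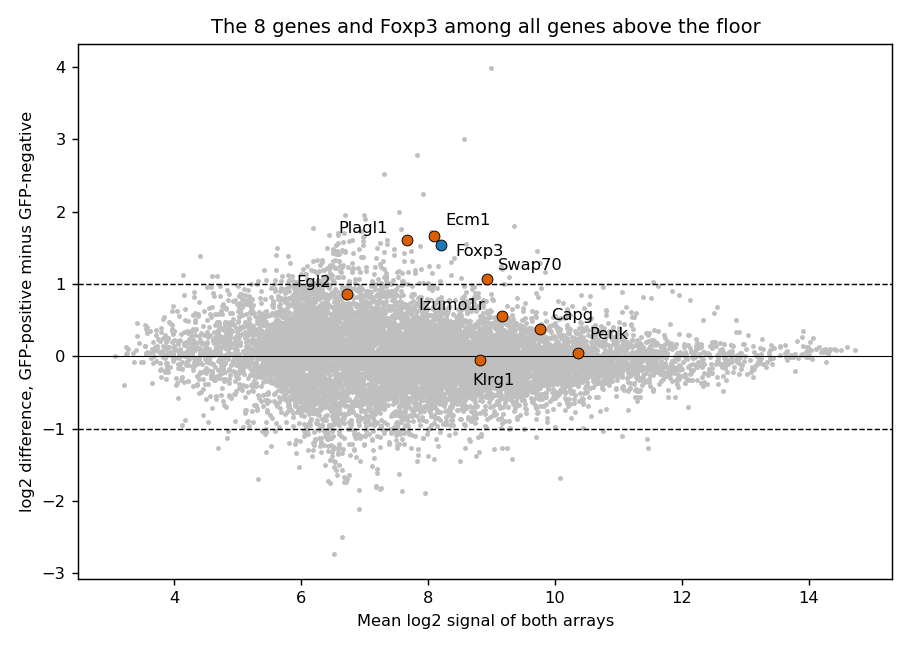
Mean log2 signal of both arrays against the log2 difference, GFP-positive minus GFP-negative, for the 10672 genes with a signal above the floor, with the 8 genes in orange, Foxp3 in blue and dashed lines at 2-fold. Ecm1, Plagl1 and Swap70 lie above the upper line, and Penk and Klrg1 lie at the zero line among most other genes.

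Grouped by role, the genes did not all differ to the same extent. Of the secreted products, Ecm1 and Fgl2 were 3.16-fold and 1.82-fold higher and Penk was at 1.03-fold. Of the surface receptors, Izumo1r was 1.48-fold higher and Klrg1 1.03-fold lower. Both actin-binding genes were higher in GFP-positive cells by all 4 of their probe sets. Over all 13 probe sets, 10 were above the floor on both arrays. Of these, 9 were higher in GFP-positive cells, and the probe set of Klrg1 was lower. The differences of Penk, Klrg1 and both Capg probe sets were smaller than the yardstick of 0.40. The share of all probe sets that were higher was not computed.

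Established regulatory T cell genes gave a comparison on the same arrays. Of the 26 listed, 24 had a probe set and 23 were above the floor. Of these 23, 19 were higher and 4 lower in GFP-positive cells, 6 were at least 2-fold higher and none at least 2-fold lower, with a median of 0.94 log2. The 6 past 2-fold were Gpr83, a G protein-coupled receptor (3.49-fold), Foxp3 (2.91-fold), Tnfrsf18, which encodes the receptor GITR (2.76-fold), Nt5e, which encodes the adenosine-forming enzyme CD73 (2.38-fold), Ikzf4, which encodes the transcription factor Eos (2.11-fold), and the cytokine gene Il10 (2.06-fold). Several more lay just under it, such as Il2rb at 1.9991-fold, Dusp4 at 1.98-fold and Ikzf2 at 1.97-fold, so the count of 6 depends on where the line is drawn. For Ikzf2, which encodes Helios, the other probe sets were past 2-fold, at 3.42-fold and 2.44-fold. The differences of Ecm1 and Plagl1, 1.66 and 1.60 log2, lay below that of Gpr83 at 1.80 and above that of Foxp3 at 1.54. The brightest probe sets of Entpd1, which encodes CD39, and Nrp1, which encodes neuropilin 1, gave 0.05 and 0.06 log2, close to the values of Penk and Klrg1. Other probe sets of Entpd1 and Nrp1 gave up to 0.63 and 0.40 log2, whereas Penk and Klrg1 have 1 probe set each. Established genes also had signals well above the floor in GFP-negative cells. The receptor gene Ctla4 had 2420 in GFP-positive cells, against 1244 in GFP-negative cells, and Ikzf2 had 4435, against 2250. Whether the GFP-negative sample held regulatory T cells was not tested, which limits the reading of small differences such as those of Penk and Klrg1.

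Partners of the actin-binding members were mostly lower in GFP-positive cells. Of 14 actin regulators, 12 were above the floor, 2 higher and 10 lower in GFP-positive cells. None passed 2-fold, and the median was -0.27 log2. The median over all genes that entered was -0.0075, and -0.038 with the floor doubled. The share of all genes that were lower was not computed. The gelsolin family genes above the floor, relatives of Capg, were lower in GFP-positive cells, and 2 more list members, Avil and Vil1, were under the floor. Gsn, which encodes gelsolin, had signals of 123 in GFP-positive cells, against 204 in GFP-negative cells. Flii had 672 in GFP-positive cells, against 873 in GFP-negative cells, and Svil and Scin were 1.37-fold and 1.47-fold lower. Def6, which encodes the closest relative of Swap70, had signals of 1360 in GFP-positive cells, against 1219 in GFP-negative cells, 0.16 log2 higher. The small GTPase genes Rac1 and Rac2 were 1.26-fold and 1.33-fold lower in GFP-positive cells. The brightest members, Cfl1, which encodes the actin-severing protein cofilin, Coro1a, which encodes coronin 1A, and Rac2, differed by -0.05, -0.14 and -0.41 log2. Other probe sets of Coro1a gave 0.39 and -0.03 log2.

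Relatives and known network partners of Plagl1 were mostly under the floor. Of 10 genes with a probe set in the imprinted network and PLAG family list, 4 were above the floor, 2 higher and 2 lower in GFP-positive cells, and none past 2-fold. Plagl2, which encodes a related zinc finger factor, had signals of 318 in GFP-positive cells, against 200.3 in GFP-negative cells, 1.59-fold higher, and its other probe sets above the floor gave 0.33 and 0.30 log2. Igf2r, which encodes the receptor that clears insulin-like growth factor 2, had signals of 1122 in GFP-positive cells, against 613 in GFP-negative cells, 1.83-fold higher, with its other probe set at 1.49-fold. The noncoding imprinted gene Meg3 had signals of 49.7 in GFP-positive cells, against 97.6 in GFP-negative cells by its brightest probe set. Its 4 other probe sets with a signal above the floor went the other way, with 68.2 to 84.5 in GFP-positive cells, against 19.6 to 56.8 in GFP-negative cells. Dlk1, another imprinted gene, had 20.0 in GFP-positive cells, against 62.4 in GFP-negative cells. The signals of Meg3 and Dlk1 were less than 2-fold above the floor, so neither gene could pass 2-fold. Igf2, Cdkn1c, Peg3, Mest, Grb10 and Plag1 were under the floor on both arrays.

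The other genes of the opioid system gave signals near or under the floor on both arrays. Of 9 with a probe set, 6 were above the floor on at least 1 array, 1 on both. All their signals were less than 2-fold above the floor, so none could pass 2-fold. Pomc, the precursor gene of beta-endorphin, had signals of 79.3 in GFP-positive cells, against 81.6 in GFP-negative cells. The delta opioid receptor gene Oprd1, whose product binds enkephalins, had 42.6 in GFP-positive cells, against 38.5 in GFP-negative cells, both under the floor. Cpe, which encodes a carboxypeptidase that trims peptide hormones, had signals of 90.3 in GFP-positive cells, against 5.40 in GFP-negative cells, at least 1.54-fold higher.

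Among folate receptor genes and carriers, the partners of Izumo1r by family, 1 of 5 was above the floor. This was Slc19a1, the reduced folate carrier gene, with signals of 307 in GFP-positive cells, against 372 in GFP-negative cells. The folate receptor genes Folr1 and Folr2 had signals of 38.4 and 3.40 in GFP-positive cells, against 16.5 and 4.10 in GFP-negative cells, all under the floor, as was Izumo1. Of Izumo1r, Folr1 and Folr2, Izumo1r was the 1 with a signal above the floor on these arrays.

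Of 8 receptors, ligands and signalling partners of Fgl2 and Klrg1, 4 were above the floor, 1 higher and 3 lower in GFP-positive cells. Fcgr3, which encodes an activating Fc gamma receptor, was the member past 2-fold, with signals of 35.0 in GFP-positive cells, against 126 in GFP-negative cells, at least 2.14-fold lower. With the floor doubled this bound was 1.07-fold, so the call rests on the floor. Fcgr2b, which encodes the inhibitory Fc gamma receptor that binds Fgl2, was under the floor on both arrays. Ptpn11, which encodes the phosphatase SHP-2, had signals of 1283.5 in GFP-positive cells, against 2165 in GFP-negative cells, 1.69-fold lower, and Inpp5d, which encodes the phosphatase SHIP-1, differed by -0.11 log2. Of the cadherin genes, Cdh1, the ligand gene of Klrg1, was under the floor with 44.0 in GFP-positive cells, and Cdh4 had 72.9 in GFP-positive cells, against 61.9 in GFP-negative cells.

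Genes around Ecm1 and Klrg1 in lymph node exit and type 2 help went both ways. Of 7 measured, 4 were higher and 3 lower in GFP-positive cells and none passed 2-fold, with a median of 0.05 log2. S1pr1, the egress receptor gene whose induction in type 2 helper cells Ecm1 is known to affect in mice, had signals of 244 in GFP-positive cells, against 236 in GFP-negative cells. Il4, the signature cytokine gene of type 2 help, had signals of 2123 in GFP-positive cells, against 1920.5 in GFP-negative cells. Gata3, the lineage regulator of type 2 help, had 783 in GFP-positive cells, against 757 in GFP-negative cells. Klf2, which drives S1pr1, and Batf, an activation-induced transcription factor gene, were 1.22-fold and 1.35-fold lower in GFP-positive cells. The type 2 cytokine gene Il13 had signals of 12.6 in GFP-positive cells, against 98.5 in GFP-negative cells, at least 1.68-fold lower. Il5, another type 2 cytokine gene, went the other way, with 66.6 in GFP-positive cells, against 6.1 in GFP-negative cells, at least 1.13-fold higher. Each of these 2 genes was above the floor on 1 array only, and by less than 2-fold, so neither could pass 2-fold.

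**Figure D3:**
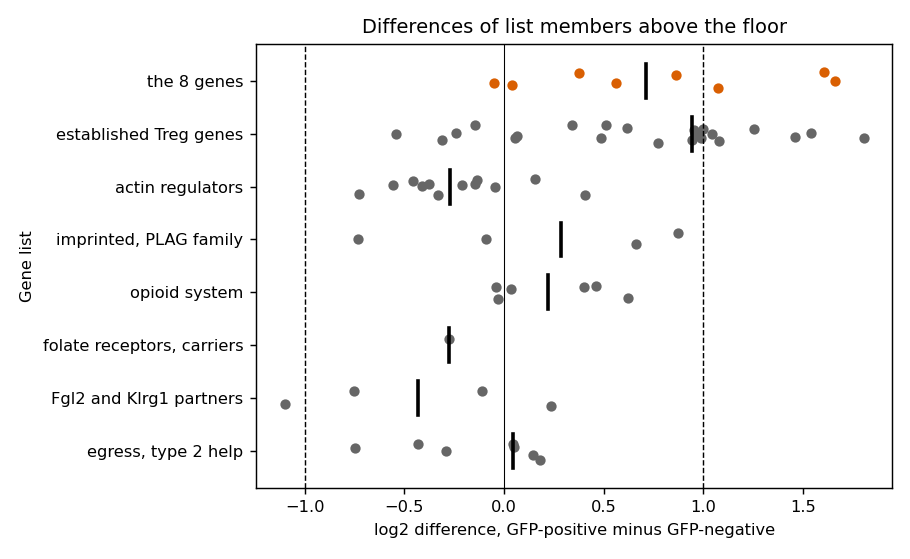
Log2 differences, GFP-positive minus GFP-negative, of the members above the floor for the 8 genes and 7 further lists, with each dot a gene, black bars at list medians and dashed lines at 2-fold. The medians of the 8 genes and of the established regulatory T cell (Treg) genes are 0.71 and 0.94, and that of the actin regulators is -0.27.

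Several of the 8 genes are also active in other blood cells, so markers of those cells were read on the same arrays. Capg and Fgl2 are known from myeloid cells. Of 10 myeloid and dendritic cell markers, 4 were above the floor on at least 1 array, 1 of them on both, and all 4 were higher in GFP-positive cells. The highest signal was 94.3, less than 2-fold above the floor, so no marker could pass 2-fold. The 4 were Adgre1, with 94.3 in GFP-positive cells, against 79.1 in GFP-negative cells, and Csf1r, Itgam and Mpo. Lyz2, Cd14, Itgax and Cd68 were among the 6 under the floor on both arrays. The summed signal of all 10, including those 6, was 390 in GFP-positive cells, against 365 in GFP-negative cells. Swap70 is known from B cells. Of 8 B cell markers with a probe set, 4 were above the floor. The summed signal of all 8, 4 of them under the floor, was 2357 in GFP-positive cells, against 4640 in GFP-negative cells. Most of that sum was Ighm, the immunoglobulin heavy chain gene. Without it the sum was 476 in GFP-positive cells, against 501 in GFP-negative cells. That remainder includes the signals under the floor, which carry no order. Ms4a1 and Cd79a had signals of 59.7 and 14.0 in GFP-positive cells, against 46.4 and 47.6 in GFP-negative cells, whereas Cd79b was 3.13-fold higher and Cd22 and Ighm were 2.39-fold and 2.20-fold lower in GFP-positive cells. The probe sets of Ighm went both ways. Klrg1 is known from CD8 T and NK cells. Of 7 markers of these cells, 5 were above the floor and none differed by 2-fold. The summed signal of all 7, 2 of them under the floor, was 1548 in GFP-positive cells, against 1241 in GFP-negative cells. Most of that sum was Gzma, a granzyme gene, with 1153 in GFP-positive cells, against 850.5 in GFP-negative cells. Klrd1 had 148.5 in GFP-positive cells, against 103.5 in GFP-negative cells, and Cd8b1 had 100.4, against 115.2. Cd8a and Ncr1 were under the floor on both arrays. A marker under the floor does not show that such cells were absent, and the part of such cells in the signals of the 8 genes was not tested.

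**Figure D4:**
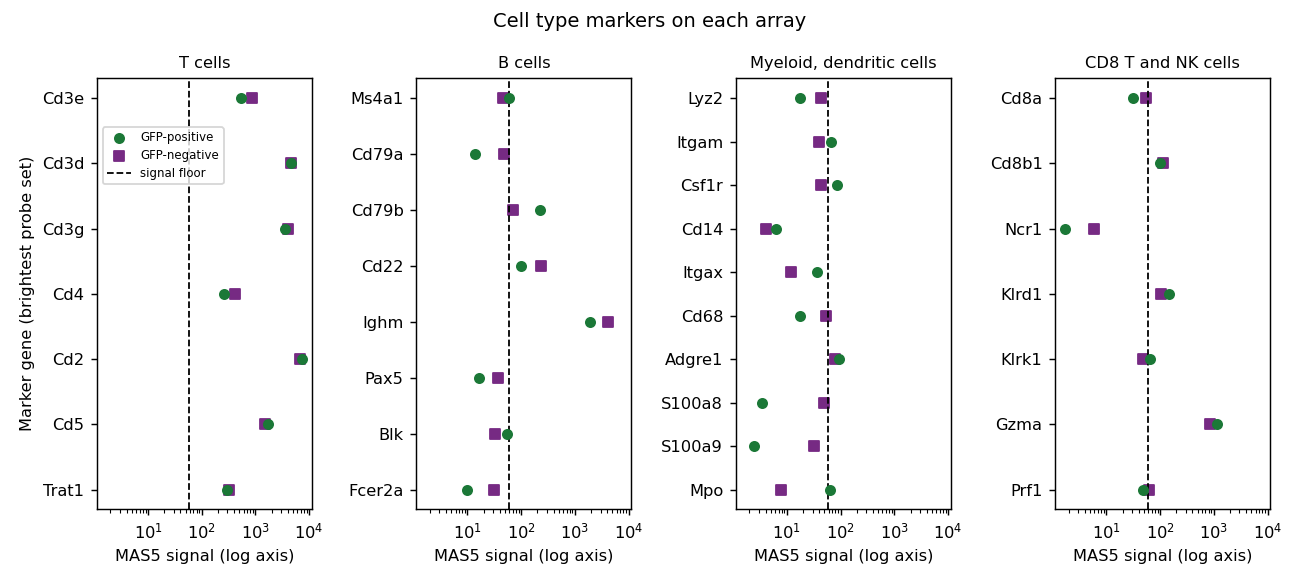
MAS5 signal on log axes for the brightest probe set of each marker of T cells, B cells, myeloid and dendritic cells, and CD8 T and NK cells, with circles for the GFP-positive array, squares for the GFP-negative array and dashed lines at the floor. All 7 T cell markers lie above the floor on both arrays, and the myeloid markers reach at most 94.3.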

How the data were processed

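Per the labels' protocols, Trizol was used to extract the RNA of both populations, and biotinylated cRNA was made from 6 µg of it. The authors computed 1 linear signal intensity per probe set and array, and MAS5 is the tool named in the submitters' processing notes. Its version, detection calls and scaling settings are not stated there. The 2% trimmed mean was 150.0 on both arrays, and no further normalization was applied.

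Probe sets were named through the platform annotation (34958 with 1 symbol, 932 with several, 9211 with none; only the first entered), and updating symbols through gene identifiers altered 0. The floor of 58.7 was the 90th percentile, over both arrays, of 118 probe sets of 63 tissue-restricted genes (72 listed). Of these 63 genes, the brightest probe sets of 15 exceeded the floor on at least 1 array. Lower signals were set to the floor before taking log2, so a fold against them is a lower bound. Changes were counted at a fixed fold of 2, and no p-value was computed, because each group has 1 array, and this number limits the precision. The steps were tested on simulated data. Named genes were all members, Foxp3, and from each list the members past 2-fold or otherwise up to 3 with the highest signals; further list genes were named after their values were seen. The members, lists and motifs were chosen with earlier results of these data known. Alternatives were another floor, quantile or loess normalization, centring, averaged probe sets and unambiguous probe sets. Python 3.11.15 with numpy 2.4.6, pandas 2.3.3 and statsmodels 0.14.6 was used.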

Additional observations from a re-analysis of the deposited data

How the results depend on the processing

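The count of 3 members at least 2-fold higher held under 6 of 7 alternatives and was 1 with all probe sets of a gene averaged, where Swap70 came to 0.94 log2 and Plagl1 was under the floor, leaving Ecm1. The count of members at least 2-fold lower was 0 under all 7. Differences of Ecm1 ranged from 1.66 to 1.68 log2, of Plagl1 from 1.30 to 1.61 where it had a value, and of Swap70 from 0.94 to 1.13. Fgl2 ranged from 0.28 with the floor doubled to 0.87. The members' median was 0.47 with the floor doubled, 0.35 under averaging and 0.97 when probe sets whose suffix marks matches to several transcripts were left out, where Capg, Izumo1r and Foxp3 had no value. Of the established regulatory T cell genes, 6 were at least 2-fold higher as reported. This count was 4 with such probe sets left out, 5 with the floor doubled and 9 after loess correction. Without a floor, counts at least 2-fold higher and lower became 3 and 2 for the imprinted list, 2 and 2 for the opioid list, 1 and 2 for the partners of Fgl2 and Klrg1, and 1 and 1 for the egress list. The folate list then had 1 higher and the actin list 1 lower, since signals near background enter. The partners of Fgl2 and Klrg1 had 0 lower with the floor doubled, where the bound for Fcgr3 fell to 1.07-fold. Over all genes, 204 were at least 2-fold higher and 194 lower, 66 and 73 with the floor doubled, and 3305 and 2420 without a floor. No paired analysis was possible because each group holds 1 array. Signals under the floor carry no order.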

Other observations

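For each of the 8 genes, the genes nearest to it in both log2 signals were listed as a description over 2 arrays, which says nothing of shared function. Foxp3 was the second nearest gene to Ecm1, with signals of 504 in GFP-positive cells, against 173 in GFP-negative cells, at a distance of 0.18 log2, after Clasrp at 0.09. Nearest to Plagl1 were Wdr53 and Gnl3l, both at 0.14, and nearest to Swap70 was Brip1os at 0.17. Nearest to Penk was Ywhaz, at 0.0094, and nearest to Klrg1 was Fars2, at 0.0033. Nearest to Capg was Prpf4b, to Izumo1r Lsm6 and to Fgl2 Mturn. Signals of different probe sets are not comparable as levels, since probes differ in binding.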
